A study of Mus musculus with 8 samples.

Results

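The ovary table of this series lists 29018 transcribed loci, and 4737 of them carry a dash in place of a gene name. The loci described here were chosen by their measured level: they are the 1097 unnamed rows whose mean FPKM in the 4 ovary libraries reached 1. FPKM counts fragments per transcript length and per mapped fragments of the library, so it is a level per length. The direction of any change was not part of the choice. Ovaries of embryonic day 15.5 gave the germ cells. The labels give the strain background as C57BL/6, whereas the study's methods describe mice of mixed C57BL/6, 129/Sv and ICR background. The cells were purified through the Oct4-EGFP transgene that every embryo carried, and 2 libraries were made from control and 2 from Snf5 CKO females. The Snf5 CKO germ cells were Snf5 fx/Δ with TNAP-Cre, a Cre gene knocked into Alpl and active in primordial germ cells (PGCs). Thus 1 allele was absent from all cells, and the other was recombined in most cells during PGC development. The paper estimates that recombination was incomplete at this age. It also reports that a minority of female Snf5 CKO germ cells still stained for SNF5 protein, in a share that varied between mice. The controls were a mixture of Snf5 fx/+, Snf5 fx/Δ and Snf5 fx/+ with TNAP-Cre, and embryos were pooled for each library. Some control cells therefore lacked 1 Snf5 allele, as all Snf5 CKO cells did before recombination.

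Female germ cells enter meiotic prophase soon after the gonads take on their sex, and at the age studied they are forming synaptonemal complexes and repairing programmed DNA breaks, while the genes of the PGC state fall silent. SNF5 (gene symbol Smarcb1) is a core subunit of the SWI/SNF complex, which moves nucleosomes and opens promoters and enhancers. When an assembler builds transcripts from RNA-Seq reads, a locus without a gene name can be a gene that is missing from the annotation supplied, a noncoding RNA, RNA made in the opposite direction from a gene's promoter, part of a neighbouring gene, or a processed pseudogene, which is a genomic copy of a spliced mRNA. Reads of a processed pseudogene and of its parent mRNA are nearly the same in sequence and are difficult to tell apart. The kit used here does not mark the strand of the RNA and the table gives none, so the direction of these transcripts is not known.

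The loci of the highest level were windows about as long as 1 sequencing read, and the sequences of those that lie inside a single-exon pseudogene are shown first because they place them against a coding mRNA. They were read from the GENCODE M21 transcripts of mm10 (GRCm38), on the strand of the pseudogene, and capitals mark bases that differ from the closest protein-coding transcript, are inserted against it or lie outside the match. The windows are Rpl23a-ps1 (chr1:45981706-45981780), Gm8618 (chr1:134109708-134109782), Gm12912 (chr4:75147892-75147967) and Gm5844 (chr3:18008877-18008977).
Rpl23a-ps1: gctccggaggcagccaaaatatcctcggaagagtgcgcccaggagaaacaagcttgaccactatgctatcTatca
Gm8618: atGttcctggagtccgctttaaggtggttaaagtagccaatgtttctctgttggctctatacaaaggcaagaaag
Gm12912: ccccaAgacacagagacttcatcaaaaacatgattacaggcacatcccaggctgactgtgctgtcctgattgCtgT
Gm5844: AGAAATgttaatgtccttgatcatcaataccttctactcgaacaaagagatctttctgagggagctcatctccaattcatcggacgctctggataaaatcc
The Rpl23a-ps1 window had 74 of 75 bases in common with Rpl23a, a protein of the large ribosomal subunit, and the Gm8618 window 74 of 75 with Rps23, a protein of the small subunit. Gm12912 shared 73 of 76 bases with Eef1a1, which brings aminoacyl-tRNA to the ribosome. Gm5844 shared 95 of 101 with Hsp90aa1, a cytosolic chaperone, and its first 6 bases lay outside the match. Of the 155 loci under 200 bases, 14 lay wholly inside a single-exon transcript, 10 of these were pseudogenes, and 8 of the 10 matched a coding transcript of another gene over at least 90% of their length, 7 of them at 95% identity or more.

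Promoters are shown for 4 loci whose levels are described below and whose ends lie at or near a start site. Each is the 250 bases before a RefSeq start of GRCm38.p6, read on the strand of the gene, with matches to the motifs searched in capitals. They belong to Ankrd31 (chr13:96748043-96748292, plus strand), Mphosph8 (chr14:56667998-56668247, plus strand), Prdm9 (chr17:15564355-15564604, minus strand) and Gm32885 (chr15:97167245-97167494, minus strand).
Ankrd31: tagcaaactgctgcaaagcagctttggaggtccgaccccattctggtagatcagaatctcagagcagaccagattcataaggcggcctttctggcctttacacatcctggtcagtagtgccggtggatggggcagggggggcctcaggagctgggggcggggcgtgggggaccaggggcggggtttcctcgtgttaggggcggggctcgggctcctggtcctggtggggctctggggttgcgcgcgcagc
Mphosph8: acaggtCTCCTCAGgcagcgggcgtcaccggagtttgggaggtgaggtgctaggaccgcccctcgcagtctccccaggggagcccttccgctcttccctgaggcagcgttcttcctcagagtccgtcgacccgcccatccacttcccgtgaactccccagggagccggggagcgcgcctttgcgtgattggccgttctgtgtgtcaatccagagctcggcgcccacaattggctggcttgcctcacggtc
Prdm9: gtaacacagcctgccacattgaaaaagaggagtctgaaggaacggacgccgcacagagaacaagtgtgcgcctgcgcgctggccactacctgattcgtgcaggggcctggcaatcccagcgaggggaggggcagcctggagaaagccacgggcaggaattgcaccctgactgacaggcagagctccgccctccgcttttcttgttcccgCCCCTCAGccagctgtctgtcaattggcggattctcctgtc
Gm32885: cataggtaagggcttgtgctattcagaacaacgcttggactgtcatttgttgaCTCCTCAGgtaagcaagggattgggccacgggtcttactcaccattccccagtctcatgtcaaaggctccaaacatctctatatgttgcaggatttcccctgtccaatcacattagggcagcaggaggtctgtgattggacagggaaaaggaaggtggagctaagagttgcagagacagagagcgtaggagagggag
The motifs were CNCCTCAG, known for STRA8, the E-box CACGTG, the ETS motif CCGGAAGT and the octamer ATGCAAAT, searched on both strands, and none overlaps another in these 4 windows. CNCCTCAG occurred in the Mphosph8, Prdm9 and Gm32885 windows, and no motif was found in that of Ankrd31. The windows shown are a selection, and no other window read for a locus named here held CNCCTCAG. A further start window of Prdm9 (chr17:15563332-15563581) held no motif. Over all 32851 promoter windows of the table, 6.42% held CNCCTCAG, against 5.59% of the 519 windows that an unnamed locus overlapped, 5.63% of the 284 that overlapped a locus called lower in Snf5 CKO, and 4 of the 32 (12.5%) that overlapped a locus called higher. The E-box stood in 6.02% of all windows and 7.32% of the 519, the ETS motif in 2.88% and 6.17%, and the octamer in 1.6% and 2.31%. These matches are a description of the letters in the windows, and the median number of CG pairs was 6 in all windows, 17 in the 519, 17 at lower loci and 3 at higher loci.

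Smarcb1 was at 23.4 and 22.3 FPKM in the controls and 4.24 and 2.47 FPKM in Snf5 CKO, a log2 fold change of -2.48 (standard error, SE, 0.25, adjusted p = 0.0025, limma). Only exon 1 is deleted, whereas the FPKM covers the whole gene. The germ cell genes Ddx4 (363, 296, 249 and 203 FPKM in control 1, control 2, Snf5 CKO 1 and Snf5 CKO 2) and Dazl (771, 888, 630 and 631 FPKM, in the same order) were high in every library. The 7 germ cell markers together summed to 5972, 5936, 3122 and 3406 FPKM, with 3 called lower (Sycp3, Tex101 and Mael) and 2 higher (Pou5f1 and Dppa3). In the same order the summed level of 12 supporting cell markers was 14.8, 18.2, 43.7 and 38.5 FPKM, with 4 of 11 fitted markers called higher and 1 lower, that of 6 stromal markers 13, 6.12, 3.77 and 5.01 FPKM, and that of 6 blood and endothelial markers 5.43, 5.45, 26.2 and 22 FPKM. Pecam1, which germ cells also express, made up most of that last sum, and none of the listed markers in the table was at 0 in all 4 libraries. The part of these cell types in the results below was not tested, and a lower number of cells of a type cannot be told apart from less RNA per cell in bulk samples. All levels below are given in this order of libraries: control 1, control 2, Snf5 CKO 1, Snf5 CKO 2.

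The unnamed loci spanned 75 to 601425 bases, with a median of 1235 bases. They fell on 1054 distinct intervals. Of the loci, 73 shared theirs with another unnamed locus and 94 shared theirs with a named row, and within a shared interval the position of a single transcript is not given. By span, 155 were under 200 bases, 361 had 200 to under 1000 bases, 353 had 1000 to under 10000 bases and 228 had 10000 bases or more. Only 13 had a lower confidence bound above 0 FPKM in all 4 libraries, and 1031 had none above 0 in any library. The bounds that Cufflinks gives for a single library were thus wide for nearly all of these loci.

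Level and span were closely tied below 200 bases. No unnamed row shorter than 100 bases had a value above 0 in control 1, and none shorter than 101 bases in Snf5 CKO 1, whereas values in control 2 and Snf5 CKO 2 began at 75 bases. The paper's methods give reads of 75 or 100 bp without tying them to a replicate. The 61 loci under 100 bases were listed at 0 in both replicate 1 libraries, while all 61 were above 0 in control 2 and 60 were above 0 in Snf5 CKO 2. Those of 75 to 79 bases had a median of 20917 FPKM for control 2, and of 11566 FPKM for Snf5 CKO 2.
The 75-base rows took values that were whole multiples, within 0.01, of 3964.45 FPKM in control 2 (10 to 16 steps) and of 4325.5 FPKM in Snf5 CKO 2 (1 to 12 steps), so that these levels stood for at most 16 steps.

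**Figure D1:**
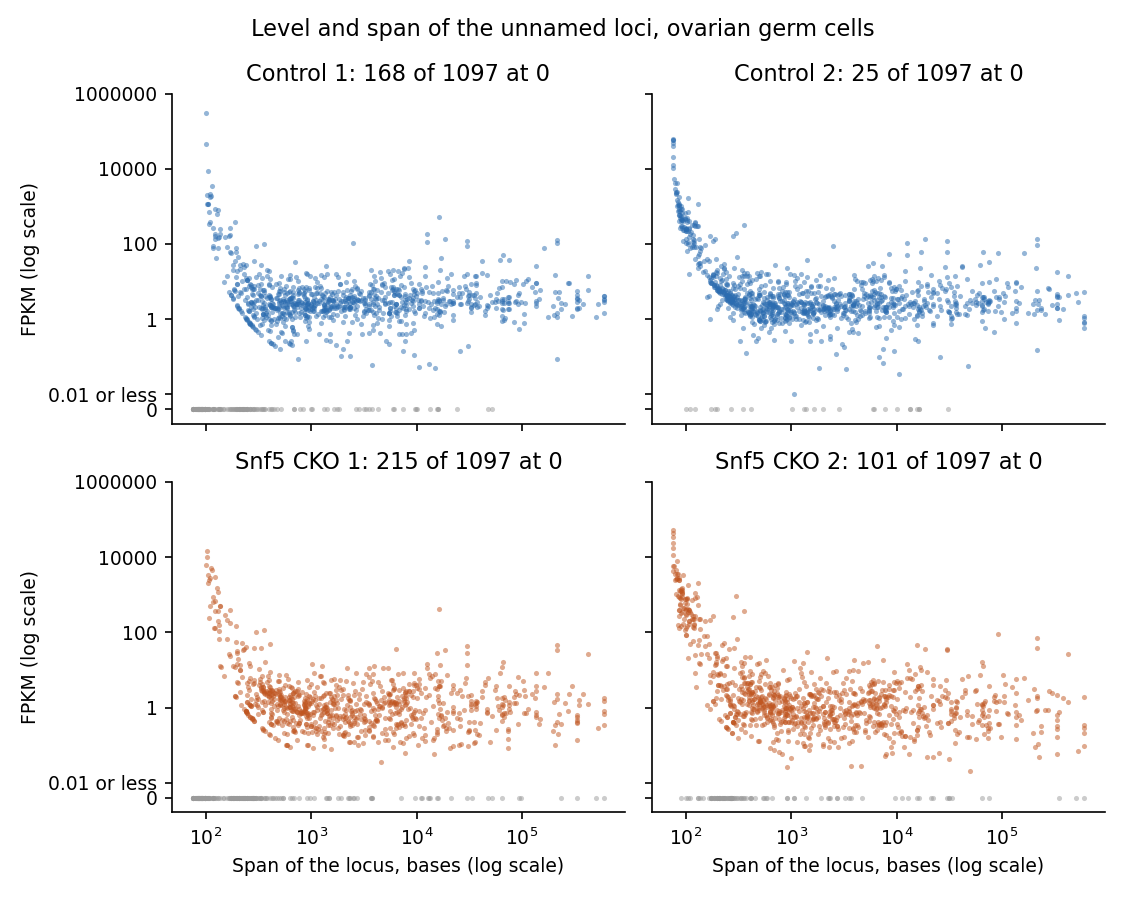
FPKM (log scale) against the span of the locus in bases (log scale) for the 1097 unnamed loci, in 1 panel for each library, with loci listed at 0 in grey at the bottom. Levels climb steeply below 200 bases, from 75 bases in control 2 and Snf5 CKO 2 and from about 100 bases in control 1 and Snf5 CKO 1.

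The highest mean belonged to a window of 100 bases at chr1:52585470-52585569, 45136 bases from Tmem194b and in no GENCODE exon. It stood at 295744 FPKM in control 1 and was listed at 0 in the other libraries, so 1 library made the whole value, and it was not called (adjusted p = 0.25, limma). Without control 2 the same window passed the threshold (adjusted p = 0.0071), with a single control library left.
Rpl23a-ps1 was at 0, 63431, 0 and 51906 FPKM, and its closest coding gene Rpl23a at 1425, 2442, 2025 and 3555 FPKM. Gm8618 was at 0, 39644, 0 and 43255 FPKM beside 1854, 1910, 2041 and 2230 FPKM for Rps23. In both pairs the pseudogene window was above the coding gene in replicate 2 and at 0 in replicate 1, while the coding gene was present in all libraries.
The window in Gm5844 went the other way, with 44136, 103, 6330 and 86.6 FPKM, beside 1065, 1300, 881 and 977 FPKM for Hsp90aa1. Sap18b, a single-exon gene close to Sap18 (71 of 75 bases), which acts in splicing and in the SIN3 corepressor, was at 0, 59467, 0 and 34604 FPKM. Gm12912 was at 0, 10459, 0 and 11566 FPKM, and Gm12174 at 0, 20917, 0 and 23133 FPKM.
These windows followed the replicate number and not the genotype. The remaining loci among the 10 of the highest mean showed the same split, namely Gm9844 (0, 47573, 0 and 4326 FPKM), a window in Gm8741 near H2-Q2 (0, 12550, 0 and 5783 FPKM) and a window at chr8:129252923-129252997 in no exon (0, 59467, 0 and 17302 FPKM). None of the 10 was called, with adjusted p between 0.25 and 0.99 (limma).

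The 1097 loci held 36.5% and 35.1% of the summed FPKM of the controls and 9.82% and 28.2% of that of Snf5 CKO. The groups did not overlap, and the exact two-sided permutation test gave p = 0.333, the smallest value that 2 libraries against 2 allow. Nearly all of this share lay in the shortest loci. The 942 loci of at least 200 bases held 0.543% and 0.5% in control and 0.404% and 0.39% in Snf5 CKO, again without overlap (exact permutation p = 0.333). Among them, 486 passed the minimum through the control mean alone and 92 through the Snf5 CKO mean alone. The direction was thus partly set by the choice of loci, and the test cannot decide on it. The summed FPKM that all these shares divide by was 1029097, 1093897, 673741 and 1026725, and it includes the short windows. Without the 10 loci of the highest mean, the share was 3.49% and 6.43% in control and 8.88% and 9.46% in Snf5 CKO, so the direction turned.

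Among the longer loci, the RNA of Snf5 CKO germ cells was mostly at the lower level. The median of the 942 loci of at least 200 bases was 2.58 and 2.57 FPKM for the controls, against 0.872 and 0.876 FPKM for Snf5 CKO. Of these 942, 486 reached 1 FPKM in the control mean alone and so had to be lower in Snf5 CKO, while 92 had the reverse. All rows of the ovary table with a mean of at least 1 FPKM, named or not, were fitted together, and a row was called when its log2 fold change, on the log2(FPKM + 1) scale, was at least 1 in size with an adjusted p under 0.05 (limma). Of the 1097 loci, 446 (40.7%) were called lower and 76 (6.93%) higher in Snf5 CKO, beside 23.2% lower and 16.1% higher among all 12739 rows fitted. At an unadjusted p under 0.05 the counts were 461 and 79. Of the 446, only 1 had the Cufflinks bounds of both controls above those of both Snf5 CKO libraries, and none of the 76 had the reverse. The median log2 fold change was -0.98 over the 1097 loci, -0.18 over all rows and -0.14 over the 11642 named rows. With the 4 libraries rescaled by median ratios, the median of all rows moved up by 0.15.

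A locus could pass the minimum of 1 FPKM through 1 group alone, and then had to differ in that direction. There were 508 loci that reached 1 FPKM in the control mean but not in the Snf5 CKO mean, and 92 with the reverse. For named rows these numbers were 603 and 647, which are close to each other. Among the 497 loci at 1 FPKM or more in both groups, 103 (20.7%) were called lower and 21 (4.23%) higher, beside 20.3% and 15.1% of the 10392 named rows of that kind. Of the 364 of these loci with at least 200 bases, 100 (27.5%) were lower and 19 (5.22%) higher. Their median log2 fold change was -0.49, against -1.08 over all 942 loci of at least 200 bases. Rows of similar level that reached 1 FPKM in both groups are a further point of reference. Of the 1939 such named rows with a mean of 1 to 5 FPKM, 10.3% were lower and 11% higher, with a median log2 fold change of 0.01. Of the 229 such unnamed loci of at least 200 bases, 18.3% were lower and 1.31% higher, with a median of -0.26. The choice of this range was made after the values had been seen, and the difference between the kinds of row was not tested.

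**Figure D2:**
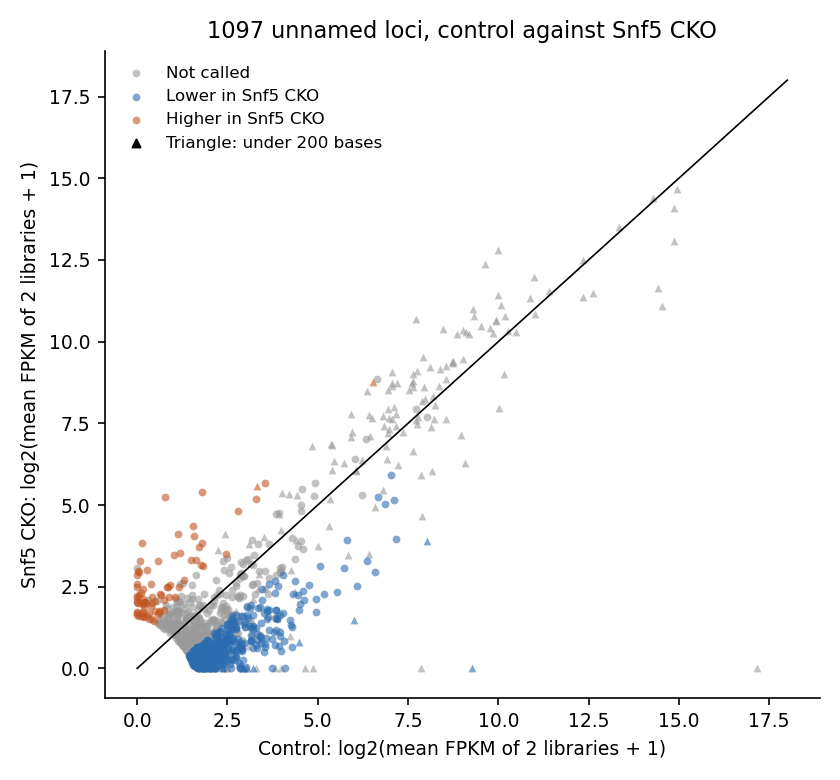
Mean level of each of the 1097 unnamed loci in 2 control libraries (horizontal) and 2 Snf5 CKO libraries (vertical), as log2(mean FPKM + 1), with triangles for loci under 200 bases and the line of equal levels. The 446 loci called lower lie below the line at low and middle levels, and the short loci at the upper right are nearly all uncalled.

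The calls were spread unevenly over the classes of span. Under 200 bases, 10 of 155 were lower and 2 higher, with a median log2 fold change of 0.13. Of those with 200 to under 1000 bases, 119 of 361 were lower and 23 higher, and of those with 1000 to under 10000 bases, 188 of 353 were lower and 36 higher. At 10000 bases and more, 129 of 228 were lower and 15 higher. The share called lower was 6.45% in the shortest class and 56.6% in the longest, beside 23.2% of all rows fitted. None of the 61 loci under 100 bases was called. These were listed at 0 in both replicate 1 libraries, so their spread within each group was wide. Of the 446 lower calls, 343 were in loci that reached 1 FPKM in the control mean alone. The classes of span, position and annotation were not divided in this way, so their shares include the effect of that choice.

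By position, 94 loci shared the interval of a named row, 486 lay within 5 kb of one, 354 lay 5 to 50 kb away and 162 lay over 50 kb away. The remaining locus was the mitochondrial chromosome, a single row listed at 517, 0, 411 and 0 FPKM, where both zeros carry a status of too much data and are no measurement. The share called lower was 55.3% among loci sharing a named interval, 47.5% within 5 kb, 32.2% at 5 to 50 kb and 30.2% beyond. The share called higher was 2.13%, 4.53%, 10.7% and 8.64% in the same classes. Among all rows fitted, 23.2% were lower and 16.1% higher. Among loci of at least 200 bases the shares called lower were 55.3%, 48.8%, 41.5% and 40.5%, a narrower range.

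**Figure D3:**
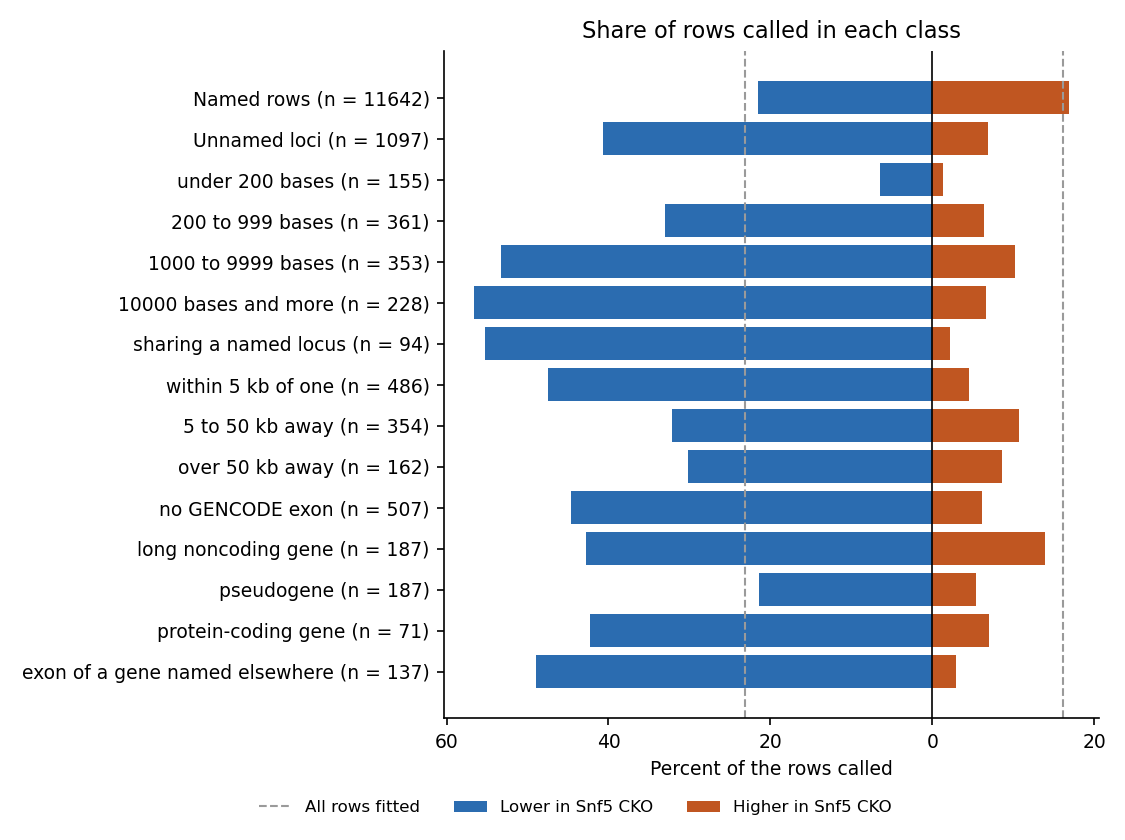
Percent of rows called lower (left) and higher (right) in Snf5 CKO for named rows, for the 1097 unnamed loci and for their classes of span, position and annotation. Dashed lines mark 23.2% lower and 16.1% higher among all rows fitted, and in most classes of unnamed loci the lower share passes its line while the higher share does not reach its own. The classes are not divided by the group in which a locus reached 1 FPKM.

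Set against GENCODE M21, 507 of the 1097 loci overlapped no exon, 187 overlapped a long noncoding gene, 187 a pseudogene, 71 a protein-coding gene without a row under its name, 137 an exon of a gene that has a named row elsewhere in the table, and 8 another type of gene. Of the long noncoding loci, 26 of 187 (13.9%) were higher and 80 lower. Pseudogene loci had 40 (21.4%) lower and 10 (5.35%) higher of 187. Loci in no exon had 226 (44.6%) lower and 31 (6.11%) higher of 507. Among all rows fitted, 23.2% were lower and 16.1% higher, so the lower share of pseudogene loci was near that of all rows. By nuclear chromosome, the share called lower ran from 26.7% of 45 on chromosome 3 to 57.4% of 54 on the X chromosome, where 1 locus was higher.

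Of the 71 loci over protein-coding genes without a row under their name, 30 (42.3%) were lower and 5 (7.04%) higher. Among all rows fitted these shares were 23.2% and 16.1%. Ankrd31, which is needed for the placing of meiotic DNA breaks, was among the 8 most negative calls. Its locus (chr13:96748265-96909780) was at 76.9, 57.3, 3.52 and 5.93 FPKM. Both Snf5 CKO libraries were far below both controls, and its log2 fold change was -3.59 (SE 0.28, adjusted p = 0.0018, limma).
Gm11639, an unnamed neighbour of the integrin gene Itgb3, was at 14.8, 22.2, 0.352 and 0.793 FPKM (log2 fold change -3.62, standard error 0.28, adjusted p = 0.0018, limma). Itgb3, 14834 bases away, changed in the opposite direction, with 1.76, 1.86, 26.7 and 20.8 FPKM and a log2 fold change of 3.13.
Further loci of this set were picked after their values had been seen. On the X chromosome, Gm4779 was at 116, 116, 28.5 and 35 FPKM (log2 fold change -1.85) and Gm15262 at 50, 60.4, 15.8 and 12.6 FPKM (log2 fold change -1.89). Vamp9 was at 14.4, 14.4, 1.26 and 0.715 FPKM (log2 fold change -2.96), and AI481877 at 37.6, 32.9, 3.85 and 3.75 FPKM (log2 fold change -2.91). Slc6a16, a member of the neurotransmitter transporter family, was at 8.66, 7.27, 1.23 and 0.796 FPKM (log2 fold change -2.16). Stard9, a kinesin of the centrosome, was at 10.8, 11.4, 2.31 and 1.43 FPKM (log2 fold change -2.09). In each of these the groups did not overlap, and adjusted p lay between 0.0016 and 0.0027 (limma). Among the unnamed loci fitted alone, Gm4779, Gm15262 and AI481877 did not pass (adjusted p = 0.41, 0.3 and 0.057).
Of those called higher, Gm29797 was at 0, 0.121, 8.46 and 9.11 FPKM (log2 fold change 3.21, standard error 0.18, adjusted p = 0.0016, limma), and Prpf6, a splicing factor 1292 bases away, did not pass the test at 34.8, 26.4, 44.8 and 31.9 FPKM.

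Loci beside genes of meiosis were next. Prdm9 encodes the histone methyltransferase that marks sites of meiotic recombination, and an unnamed transcript shared its interval (chr17:15543079-15564352). This transcript was at 16.1, 14.6, 2.42 and 2.02 FPKM, and its log2 fold change was -2.35 (SE 0.17, adjusted p = 0.0017, limma). The named row of Prdm9 stood at 223, 153, 9.99 and 11.5 FPKM, so both were lower in Snf5 CKO.
Spo11 makes the DNA breaks of meiosis. An unnamed locus (chr2:172972898-172979724) ended 118 bases from the start of its named row and held 4.41, 2.62, 0.312 and 0.367 FPKM, and its log2 fold change was -1.72 (SE 0.26, adjusted p = 0.0059, limma). Spo11 itself was at 140, 118, 8.24 and 10.8 FPKM. GENCODE places exons of Spo11 inside this unnamed locus, so it may be counted as a part of that gene. When every row of the table was fitted with no minimum level, its adjusted p was 0.064.
Fbxo47, an F-box gene of meiotic germ cells, had the opposite kind of neighbour. The long noncoding gene Gm11630, 345 bases from its start, was at 2.97, 2.1, 2.78 and 2.91 FPKM and its log2 fold change was 0.13 (SE 0.2, adjusted p = 0.6, limma), and its groups overlapped. Fbxo47 was at 235, 184, 10.8 and 13.2 FPKM, with a log2 fold change of -4.01.

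Genes of the PGC state gave 3 further loci. Lin28b, an RNA-binding protein that blocks the maturation of let-7 microRNAs, shared its interval (chr10:45376566-45490082) with an unnamed transcript of 11.5, 6.92, 0.94 and 0.691 FPKM (log2 fold change -2.46, standard error 0.28, adjusted p = 0.0032, limma). The named row of Lin28b was at 5.69, 5.97, 3.47 and 3.11 FPKM and did not reach the fold limit, with a log2 fold change of -0.67. The unnamed transcript was thus above the named one in control and below it in Snf5 CKO, on a scale per length.
Kit encodes the receptor for KIT ligand. A locus of 2033 bases 5288 bases before its start was at 1.84, 1.66, 0.216 and 0.411 FPKM (log2 fold change -1.07, standard error 0.19, adjusted p = 0.0097, limma). It fell short of the fold limit without Snf5 CKO 1 (-0.96) and with the libraries rescaled by median ratios (-0.99). Kit itself was at 12.8, 12.7, 63.8 and 46.7 FPKM, higher in Snf5 CKO by 2.02 on the log2 scale.
Near Nanog, a transcription factor of pluripotent cells, lay an 80-base window at the pseudogene Gm10224, 9069 bases away, at 0, 2144, 0 and 4479 FPKM. It followed the replicate number and was not called (adjusted p = 0.94, limma), while Nanog was at 0.575, 0.931, 43.9 and 49.7 FPKM.
A locus 23408 bases from Tcl1, a coactivator of AKT in early embryonic cells, was picked after its values had been seen. It stood at 0, 0.416, 4.69 and 9.59 FPKM (log2 fold change 2.71, standard error 0.38, adjusted p = 0.005, limma), and Tcl1 at 1.63, 2.35, 101 and 121 FPKM. With no minimum level in the fit the adjusted p of the locus was 0.061.

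Many unnamed loci lay directly at the starts of named genes. Of the loci with at least 200 bases, 297 ended within 1 kb of the start of the nearest named row, by the strand that GENCODE gives for that gene, with a median distance of 147 bases, and 45 within 1 kb of its end. Of the 297, 164 (55.2%) were lower and 9 higher, and of the 45, 17 (37.8%) were lower and 3 higher, beside 23.2% and 16.1% of all rows fitted. Of the 297, 182 reached 1 FPKM in the control mean alone, and 131 of these were lower. Of the 104 that reached it in both groups, 33 (31.7%) were lower and 2 higher. Of the 297 neighbours, 289 had been fitted. The median log2 fold change was -1.18 for the loci and -0.29 for these neighbours. Where the locus was lower, the neighbour was lower in 58 pairs, not called in 97 and higher in 7. Of all rows fitted, 23.2% were lower and 16.1% higher. Across the 289 pairs the log2 fold changes of locus and neighbour correlated with r = 0.44 (Pearson).
The examples that follow were picked after their values had been seen, apart from the locus near Mphosph8.

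**Figure D4:**
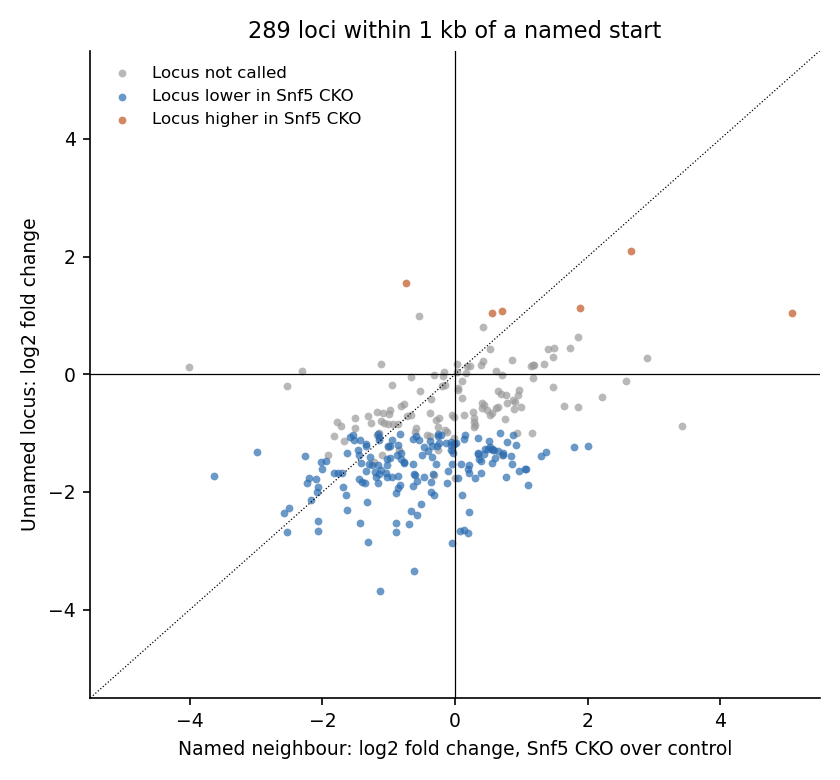
Log2 fold change (Snf5 CKO over control, log2(FPKM + 1) scale) of 289 unnamed loci within 1 kb of a named start (vertical) against that of the named neighbour (horizontal), with the line of equal change dotted. Loci called lower occupy a band below -1 that runs across neighbours that were lower, not called and higher. Across all pairs r was 0.44 (Pearson).

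Mphosph8, a reader of methylated histone H3 in the HUSH silencing complex, had an unnamed locus 82 bases from its start (chr14:56665548-56668053), over the pseudogene Gm4032. The locus was at 106, 85.6, 4.55 and 9.07 FPKM (log2 fold change -3.68, standard error 0.33, adjusted p = 0.0021, limma), and Mphosph8 at 145, 185, 66.6 and 83.8 FPKM (log2 fold change -1.13). Both were lower, the locus by more, although the difference was not tested.
Nek4, a kinase, was at 35, 24, 12.6 and 9.61 FPKM, and a locus 68 bases from its start at 32.1, 27.7, 2.74 and 3.92 FPKM (log2 fold change -2.84). Ccne2, which encodes cyclin E2, was at 81, 77.7, 12.8 and 13.4 FPKM, and a locus 41 bases from its start at 15.9, 10.9, 2.26 and 1.61 FPKM (log2 fold change -2.28). Both loci and both genes were called lower.
Other loci were lower beside a gene that was not called. A locus 66 bases from Smc5, a subunit of the SMC5/6 complex of DNA repair, was at 14.2, 14, 0 and 1.22 FPKM (log2 fold change -3.34), while Smc5 was at 24.3, 15.7, 14.4 and 10.5 FPKM. A locus 102 bases from Mgat1, an enzyme of N-glycan synthesis, was at 10.2, 11.7, 0.626 and 1.16 FPKM (log2 fold change -2.67), while Mgat1 was at 8.33, 6.24, 8.89 and 6.56 FPKM. Gm36246, which GENCODE lists as a noncoding RNA of a bidirectional promoter, was at 17.5, 9.46, 1.09 and 1.38 FPKM (log2 fold change -2.64), while Aaas, a nuclear pore gene 65 bases away, was at 128, 140, 150 and 143 FPKM. In these pairs the locus did not overlap between groups, and the levels of Mgat1 did overlap.
A smaller number went against their neighbour. A locus 157 bases from Trim59 was at 3.68, 2.94, 0.396 and 0.413 FPKM (log2 fold change -1.61, adjusted p = 0.0035, limma), and Trim59 at 32, 28, 67.9 and 59.3 FPKM. A locus 99 bases from Slc44a1, a choline transporter, was at 4.78, 2.71, 0.136 and 0.397 FPKM (log2 fold change -1.88, adjusted p = 0.0064, limma), and Slc44a1 at 10.4, 11.5, 27 and 22.4 FPKM. The other loci of this kind stood near Rap2c, Tmem165, Ppp2ca, Arid3b and Id2, and each of them lost its call when some library was left out.
Of the higher ones, Gm35986, 150 bases from the fatty acid elongase gene Elovl6, was at 1.48, 3.41, 11.4 and 15 FPKM (log2 fold change 2.09, standard error 0.34, adjusted p = 0.0072, limma), beside 0.642, 0.473, 9.03 and 8.63 FPKM for Elovl6. A locus 190 bases from Itpr1, a calcium channel of the endoplasmic reticulum, was at 0.26, 0.582, 3.47 and 2.84 FPKM (log2 fold change 1.55), while Itpr1 was at 8.35, 6.42, 4.51 and 3.51 FPKM.
With no minimum level in the fit, the loci near Smc5, Slc44a1, Elovl6 and Itpr1 did not pass (adjusted p = 0.05, 0.068, 0.069 and 0.054). Fitted among the unnamed loci alone, those near Nek4 and Elovl6 did not (adjusted p = 0.05 and 0.057).

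Several of the most positive calls lay in long noncoding genes, although the share called higher in that class, 13.9%, was below the 16.1% of all rows fitted. Gm13261 (chr2:10338577-10354090) lay 16361 bases from the start of Sfmbt2, an imprinted Polycomb gene, and was at 0.751, 0.689, 28.4 and 45 FPKM. At 4.42 (SE 0.26, adjusted p = 0.0016, limma) its log2 fold change was the most positive of all 76, and Sfmbt2 was at 2.22, 1.65, 26.8 and 20.2 FPKM (log2 fold change 3.06).
Gm32885 (chr15:97160825-97167261) was at 2.51, 2.48, 37.1 and 44.6 FPKM, and its log2 fold change was 3.58 (SE 0.17, adjusted p = 0.0016, limma). Gm13203 (chr4:148709143-148716548) was at 0.145, 0.0695, 8.5 and 17.9 FPKM (log2 fold change 3.6), and Gm32585 at 0.256, 2.09, 11.4 and 21.2 FPKM (log2 fold change 3.07, adjusted p = 0.085 in limma with no minimum level in the fit). 1700047F07Rik, 19391 bases from the transcription factor gene Dmrtb1, was at 0, 0.0469, 7.83 and 5.92 FPKM (log2 fold change 2.93), and Dmrtb1 at 1.3, 1.62, 9.52 and 12.6 FPKM.
In all of these, RNA was at or near 0 in control, or a few FPKM at most, and higher in both Snf5 CKO libraries. A locus of 47802 bases at chr8:78066303-78114104 with the same pattern held 0, 0.0568, 6.27 and 7.08 FPKM (log2 fold change 2.9, standard error 0.18, adjusted p = 0.0016, limma), and its only exon is the pseudogene Gm45288, which covers 0.316% of it.
Cd248 encodes a surface protein of stromal cells. The unnamed transcript in its interval was at 1.28, 2.63, 13 and 18.2 FPKM (log2 fold change 2.51, adjusted p = 0.0037, limma), and the named row at 0.303, 0.26, 2.68 and 4.88 FPKM, while the stromal markers summed to less in Snf5 CKO than in control. Whether other cells gave this signal was not tested.

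**Figure D5:**
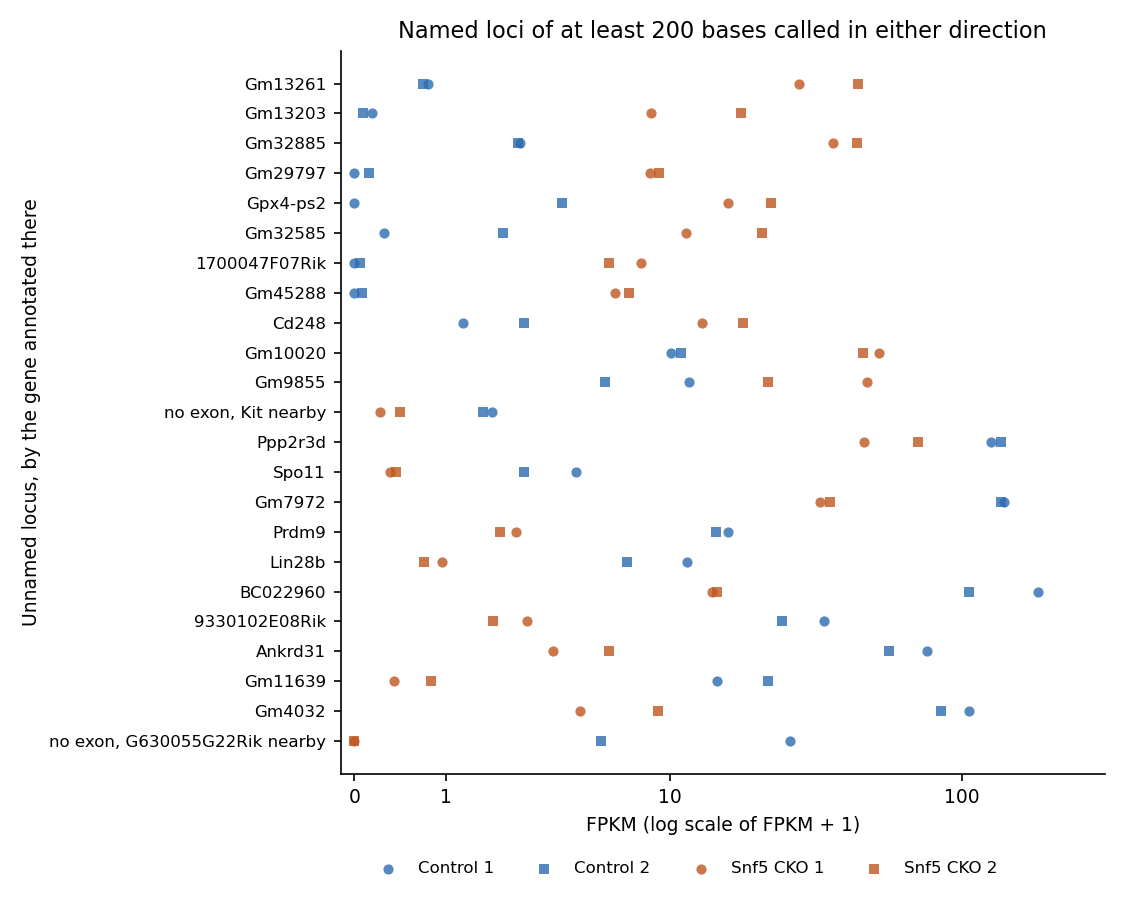
FPKM (log scale of FPKM + 1) in each library for the loci of at least 200 bases that the naming rule selects and that were called, 1 line for each locus, labelled by the gene GENCODE has there. Control libraries are blue and Snf5 CKO libraries orange, circles are replicate 1 and squares replicate 2, and on every line the 2 controls lie on 1 side of the 2 Snf5 CKO libraries.

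Of the lower loci with the highest levels, several lay in pseudogenes and repeated gene families, where reads may be shared between copies. BC022960 on the X chromosome (chrX:169357533-169370155) was at 180, 106, 14.2 and 14.8 FPKM (log2 fold change -3.17, standard error 0.28, adjusted p = 0.0021, limma), and a further unnamed transcript of the same interval at 112, 50.6, 11.2 and 6.26 FPKM. Gm7972 (chr9:75467995-75486682) was at 138, 135, 33.4 and 36.2 FPKM (log2 fold change -1.94, standard error 0.15, adjusted p = 0.0018, limma), and Leo1, 1563 bases away, a subunit of the PAF1 complex of transcription elongation, had a log2 fold change of -0.03. The locus around Ppp2r3d and Nlrp4g was at 125, 135, 47.1 and 71.5 FPKM (log2 fold change -1.15, adjusted p = 0.016, limma). It was not called without control 1 or control 2 (-1.20 and -1.10), where the adjusted p missed its limit. Without Snf5 CKO 1 it fell short of the fold limit (-0.85), as with the libraries rescaled by median ratios (-0.97). Nor did it pass with no minimum level or among the unnamed loci alone (adjusted p = 0.09 and 0.64, limma).
The transcript in the interval of 9330102E08Rik, itself a long noncoding gene with a named row, was at 34.5, 24.8, 2.7 and 1.86 FPKM (log2 fold change -3.22, standard error 0.24, adjusted p = 0.0018, limma), and the named row at 6.61, 4.72, 1.06 and 0.803 FPKM.
Fitted among the unnamed loci alone, whose spread includes that of the short windows, Ankrd31, the Mphosph8 neighbour, BC022960 and Gm7972 did not pass (adjusted p = 0.067, 0.09, 0.17 and 0.4).

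The 4 most negative calls were windows under 200 bases. A 105-base window at chr7:137167677-137167781 was at 1136 and 96.8 FPKM in control, was listed at 0 in both libraries of Snf5 CKO, and was called lower (adjusted p = 0.0051, limma). On chromosome 18, a locus of 1373 bases with no exon was at 26.4 and 5.54 FPKM in control and also listed at 0 in Snf5 CKO (adjusted p = 0.011). No fold is given against a group at 0, and the control libraries of these loci differed from each other severalfold.
A window at chr6:75782720-75782843 near Gm9001 was at 42, 84, 0 and 3.61 FPKM (log2 fold change -4.82, adjusted p = 0.008), and one 3435 bases from Rimklb at 28.2, 14.6, 0 and 1.5 FPKM (log2 fold change -3.75, adjusted p = 0.0057). A window of 188 bases at chr3:6138754-6138941 was at 391, 132, 0 and 28.1 FPKM (adjusted p = 0.046) and lost its call without either control (adjusted p = 0.2 and 0.11). With no minimum level in the fit none of these 5 loci passed, with adjusted p of 0.064 for the window on chromosome 7, 0.098 on chromosome 18, 0.083 at Gm9001, 0.066 near Rimklb and 0.22 on chromosome 3.
Of the pseudogene windows called higher, Gm10020 was at 10.1, 11, 52.8 and 46.8 FPKM, and its log2 fold change was 2.14 (SE 0.15, adjusted p = 0.0017, limma). Gpx4-ps2, a copy of the glutathione peroxidase gene Gpx4, was at 0, 3.83, 16.1 and 22.7 FPKM, Gm9855 at 11.7, 5.72, 48.4 and 22.2 FPKM, and Gm5805 at 88, 93.4, 631 and 232 FPKM. Also called higher was a 158-base window in no GENCODE exon, 117485 bases from Zfp369, at 14.2, 3.81, 66.9 and 26.9 FPKM. The groups of Gpx4-ps2, Gm9855, Gm5805 and this window did not overlap, but each of these 4 lost its call when some single library was left out. Fitted among the unnamed loci alone, Gm10020 did not pass (adjusted p = 0.22).

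Of a list of known noncoding RNAs, such as Xist, Meg3 and Malat1, a single member lay in an unnamed locus. It was Rny1, a small RNA of the Ro ribonucleoprotein, which covers 41.6% of a 238-base locus at 0, 4.26, 0.804 and 2.17 FPKM, with overlapping groups (adjusted p = 0.96, limma). At the limit of the choice, the members just above a mean of 1 FPKM were a locus 107 bases from Dpy19l1 (1.52, 0.887, 0.822 and 0.772 FPKM), Gm35850 (3.04, 0.711, 0.254 and 0 FPKM) and Gm26533 (1.71, 0.817, 0.601 and 0.872 FPKM). Just below it were loci at chr16:57607106-57608120 (1.46, 1.46, 0.582 and 0.495 FPKM), chr2:10360867-10365228 (0.0856, 0.0341, 2.34 and 1.53 FPKM) and chr5:133996461-134007480 (1.8, 2.08, 0 and 0.115 FPKM).

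The testis table was assembled and normalized on its own, from male germ cells of the same age and genotypes with 2 control and 2 Snf5 CKO libraries, and 418 of the 1097 ovary loci shared at least 50% of both spans with an unnamed testis row. Of these, 302 had a mean of at least 1 FPKM there and were fitted, in a table where 17.3% of 13856 rows were lower and 12.5% higher in Snf5 CKO. Of the matched loci that were lower in the ovary, 18 were lower in the testis, 1 was higher and 45 were not called. Of those higher in the ovary, 15 were higher in the testis, 1 was lower and 17 were not called.
Ankrd31 was at 15.5, 16.6, 1.72 and 2.75 FPKM in the testis (log2 fold change -2.42, adjusted p = 0.0087, limma), lower as in the ovary. Gm29797 was at 0.246, 0.19, 8.61 and 18.9 FPKM (log2 fold change 3.50, adjusted p = 0.011, limma), higher as in the ovary, and so was Gm13261 at 19.2, 28.6, 50.2 and 79.5 FPKM (log2 fold change 1.39, adjusted p = 0.039, limma). Gm32885, higher in the ovary, was at 45.8, 73.6, 57.1 and 90.2 FPKM in the testis with overlapping groups (adjusted p = 0.55, limma). The difference between the ovary and the testis was not tested, and levels of the separate tables are given side by side only.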

How the data were processed

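RNA-Seq of sorted E15.5 ovarian germ cells gave 4 libraries, 2 control and 2 Snf5 CKO. The authors amplified total RNA with SMART-Seq v4 and made Nextera XT libraries, mapped paired-end reads to mm10 and quantified assembled loci. The submitters' processing notes name TopHat2 2.2.1 and Cuffdiff 2.1.1. The deposited tables hold, for each locus and library, FPKM, its confidence bounds and a status (other than a number). They hold no counts, so the depth is unknown and no counting interval is given. A value listed at 0 may be a failed estimate where the status is not OK. Among the 1097 loci, only the mitochondrial chromosome had such a status in some library. The number of columns left unmapped was 0.

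The members and lists were chosen with earlier results of these data known. Loci were taken as listed, with 1 added to the start. Named rows overlapped the GENCODE M21 gene of their symbol in 98.4% of 23316 cases. All rows with a mean of at least 1 FPKM were fitted in limma 3.58.1 (R 4.3.3) on log2(FPKM + 1) with a variance trend, which added 2.68 degrees of freedom, with Benjamini-Hochberg adjustment over all rows. The fit was tested on simulated data. Members were named by fixed rules: the 10 highest means, the 8 largest called changes and the 5 highest called levels in each direction, the largest called change in each position class, loci in listed noncoding RNAs or within 10 kb of listed meiosis or PGC genes, and 3 on each side of the limit. Others are said to have been picked after their values were seen. Windows were matched with blastn 2.17.0. Replicate numbers 1 and 2 go with different styles of raw file names in the labels and were taken as a possible shared batch. It entered only the alternative with a replicate block. The main fit held the genotype alone, so its adjusted p values do not allow for the replicate. The deviations of replicate 2 from replicate 1 in both groups correlated across rows. The r was 0.801 over all rows, 0.504 over named rows, 0.885 over unnamed rows and 0.553 over unnamed rows of at least 200 bases. Alternatives were another pseudocount, other minimum levels, rescaled libraries, no trend, unnamed loci alone, status OK, the replicate block and each library left out. Added after seeing the data were fits without unnamed loci under 200 bases and counts without loci shared with named rows.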

Additional observations from a re-analysis of the deposited data

Results flagged for a closer look

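In each of the 3 loci listed here, both Snf5 CKO libraries lay on a given side of both controls in the ovary and on the other side in the testis. The first 2 were the only matched loci called in opposite directions in the ovary and the testis, 1 each way, and Gm7972 was not called in the testis. They were picked for this pattern, and the difference between the tables was not tested. Groups without overlap are common with 2 libraries against 2. Of the 1097 loci in the ovary, 619 had both Snf5 CKO libraries below both controls and 146 had both above. Of all 12739 rows fitted, 5897 had both below and 4361 had both above. Among the 619, 449 reached 1 FPKM in the control mean alone, and among the 146, 79 in the Snf5 CKO mean alone. The share of all matched loci with opposite sides is not given. A locus at chr15:77318724-77338520, 9856 bases from 1700109K24Rik and in no GENCODE exon, was at 7.68, 5.21, 0.392 and 0.479 FPKM in the ovary, with the controls first (log2 fold change -2.36, adjusted p = 0.0025, limma). In the testis it was at 0.245, 0.144, 4.33 and 5.87 FPKM (log2 fold change 2.34, adjusted p = 0.009). A locus of chr4:33192737-33193155, 3000 bases from Pm20d2, was at 0.225, 0.82, 3 and 1.58 FPKM in the ovary (log2 fold change 1.11, adjusted p = 0.041, limma) and at 3.22, 5.3, 0.0964 and 0.614 FPKM in the testis (log2 fold change -1.95, adjusted p = 0.02), with the controls given first. Gm7972, with a log2 fold change of -1.94 in the ovary, was at 5.7 and 5.34 FPKM in testis control and 5.84 and 6.54 FPKM in testis Snf5 CKO, a difference that did not pass the test there (log2 fold change 0.14, adjusted p = 0.53). Groups of 2 libraries are too small for a check of single outlying samples.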

How the results depend on the processing

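The counts of 446 lower and 76 higher loci became 185 and 37 with no minimum level in the fit, 78 and 20 with a mean of at least 5 FPKM (293 loci), and 103 and 21 among loci at 1 FPKM or more in both groups. The last of these settings test fewer loci. The cause of the fall with no minimum was not tested. With single libraries left out the counts lay between 368 and 444 lower and between 57 and 89 higher. With the replicate block they were 481 and 95, and the block ended no call of a locus named here. A pseudocount of 0.1, both rescalings, no trend, unnamed loci alone, status OK, an unadjusted p, only unnamed loci of at least 200 bases (451 and 75) and no shared intervals (394 and 74) kept both counts within 1.5 times. Of 97 loci named or listed beside those named, 30 kept their call at every setting and 28 lost it when some library was left out, 52 with no minimum level and 35 with unnamed loci fitted alone. The difference in the share of FPKM, -16.8 percentage points, became 4.21 without the 10 loci of the highest mean and -0.124 with loci of at least 200 bases. Counting any shared base gave 715 loci matched to the testis in place of 418. Asking for at least 50% of the span inside a named interval left the 94 overlapping loci as they were. Depth is unknown, and low levels rest on few fragments.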
